A study of Macaca fascicularis with 11 samples.

Results

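TFAP2A and TFAP2C, the AP-2α and AP-2γ transcription factors, were followed through every cell type of cynomolgus (Macaca fascicularis) embryos cultured in vitro across implantation stages. Both members were found among the 19367 genes of the corrected single-cell matrix by matching the symbols to Ensembl identifiers, TFAP2A as ENSMFAG00000039760 and TFAP2C as ENSMFAG00000004040, with 1019 identifiers paired with a symbol in all. The study compared wild-type embryos with ISL1 hypomorphic mutants, made by injecting zygotes with Cas9 and guide RNAs against ISL1, at Day 10, at Day 12 and at Day 14. Wild-type embryos gave 6 libraries from 12 embryos, 2 libraries at each day, which the labels number as batches 1 and 2. Mutant embryos gave 5 libraries from 11 embryos, with 1 library at Day 10 and 2 at Day 12 and at Day 14. A library pooled 1 to 3 embryos, all thawed as blastocysts and grown in the same sequence of culture media, and mutant embryos were mosaics of differently edited cells.

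AP-2 proteins bind GC-rich DNA as dimers that can form between family members. TFAP2C is needed in mouse for trophectoderm and trophoblast maintenance and is also used by human naive pluripotent cells and primordial germ cells, whereas TFAP2A acts in surface ectoderm, neural crest and trophoblast, where AP-2 sites lie in placental hormone gene promoters. The amnion, the epithelium that forms on the dorsal side of the primate epiblast, is a further site of AP-2 activity.

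The libraries held 325 to 9625 cells each and between 36654977 and 164808415 UMIs (unique molecular identifiers, each standing for 1 captured transcript molecule), and the median cell of a library held 10916 to 142180 UMIs. No pair of libraries shared more than 16 cell barcodes, or 0.520% of the smaller library. ISL1 in amnion-like cells at Day 14 stood at 162 and 186 CPM (UMIs of a gene scaled to a fixed total of UMIs) in the 2 wild-type libraries and at 163 and 185 CPM in the 2 mutant libraries, and a 3′ transcript count does not test whether the protein is edited. Cells were clustered without the members or the AP-2 and transcription factor lists used below, and clusters were named from other marker genes. This gave 22291 trophoblast-like cells, with CGA, the hormone α subunit, at 1888 CPM or more in every library, and 353 amnion-like cells, with GABRP at 16.2 to 74.1 CPM and ISL1 at 39.6 to 186 CPM in the libraries that had at least 5 of them. The lowest GABRP value came from 7 cells and from fewer than 3 UMIs. Markers of other types were also present in these amnion-like sums, with the pluripotency gene POU5F1 at 189 to 1481 CPM, where Epi-like cells held 1314 to 1746 CPM, and the trophoblast genes CGA and XAGE3 at up to 809 and 828 CPM. In trophoblast-like cells GABRP was at 1.46 CPM or less and ISL1 at 2.65 CPM or less. The whole list of 12 amnion markers was less distinct. At Day 14 it summed to 1279 to 2696 CPM in wild-type and 2446 to 2694 CPM in mutant amnion-like cells. In trophoblast-like cells of that day it summed to 471 to 860 CPM in the wild type and 427 to 477 CPM in the mutant. Another 966 cells stayed unnamed, and 833 of the 3045 cells derived from the epiblast (Epi-derived) could not be given a finer name.

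Among the named types TFAP2A and TFAP2C were at their highest mean levels in trophoblast-like and amnion-like cells at Day 14, and they were low in endoderm and in extraembryonic mesenchyme (ExE-Mech). Per library, a level is the UMIs of a gene summed over the cells of a type and scaled to the summed UMIs of those cells (CPM), for sums of at least 5 cells. At Day 14, mean TFAP2A was 121 ± 26.3 CPM in trophoblast-like cells (SD, n = 4 libraries), 106 ± 16.8 CPM in cells without a type name, 96.1 ± 46.3 CPM in amnion-like cells, 62.3 ± 31.9 CPM in Epi-derived cells without a finer name, 14.9 ± 14.5 CPM in epiblast-like (Epi-like) cells, 13.2 ± 9.72 CPM in mesoderm-like cells (n = 3), 5.31 ± 2.53 CPM in ExE-Mech-like cells and 5.07 ± 3.81 CPM in endoderm-like cells. Only the step from the unnamed Epi-derived cells to Epi-like cells was larger than the larger SD of the 2 neighbours in that order, at 1.49 times it. TFAP2C at Day 14 was 74.0 ± 58.1 CPM in amnion-like cells, 56.2 ± 16.6 CPM in trophoblast-like cells, 54.9 ± 12.1 CPM in cells without a type name, 49.6 ± 19.6 CPM in unnamed Epi-derived cells, 43.4 ± 61.4 CPM in mesoderm-like cells, 10.6 ± 4.08 CPM in Epi-like cells, 3.79 ± 3.46 CPM in endoderm-like cells and 1.77 ± 0.960 CPM in ExE-Mech-like cells. Here only the step from Epi-like to endoderm-like cells exceeded the larger SD, at 1.66 times it. These SDs, like those of TFAP2A, pool wild-type and mutant libraries and ignore that the types share libraries. The wide SD of mesoderm-like cells came largely from a single mutant library. Types further apart in the order were not compared this way. Over all 11 libraries, endoderm-like cells held 0 to 15.4 CPM of TFAP2A and 0 to 7.41 CPM of TFAP2C, and these levels are taken as the background.

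**Figure D1:**
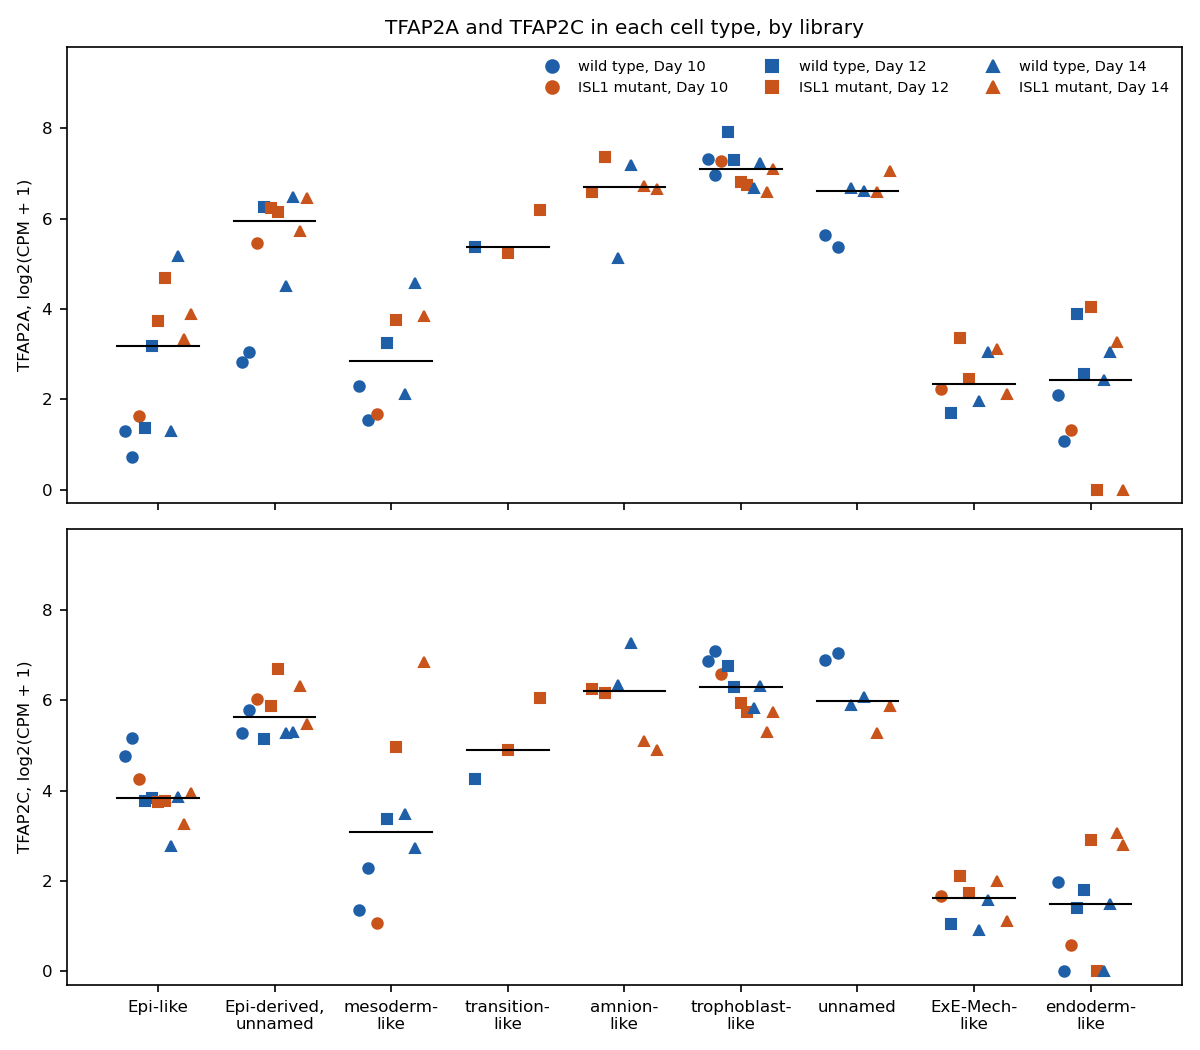
Levels of TFAP2A (top) and TFAP2C (bottom), as log2(CPM + 1) on the vertical axis, with cell types on the horizontal axis. Beside the named types, it shows Epi-derived cells without a finer name and cells without a type name. Each point is 1 library, coloured by genotype and shaped by day, and the black bar is the median over libraries. Trophoblast-like and amnion-like cells lie high for both genes, Epi-like cells of Day 10 lie low for TFAP2A and higher for TFAP2C, and ExE-Mech-like and endoderm-like cells lie low for both.

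In wild-type trophoblast the question was how the members changed between Day 10 and Day 14. TFAP2A was at 158 and 124 CPM in the Day 10 libraries, 241 and 156 CPM at Day 12, and 102 and 149 CPM at Day 14. These levels overlapped between Day 10 and Day 14, with a log2 difference of -0.20 ± 0.32 (SE, Day 14 minus Day 10, edgeR quasi-likelihood test, adjusted p = 0.739). TFAP2C was at 116 and 135 CPM at Day 10, 108 and 77.4 CPM at Day 12, and 55.9 and 78.3 CPM at Day 14. Both Day 14 libraries lay below both Day 10 libraries, and the share of all genes that separate this way was not counted. The log2 difference of TFAP2C was -0.93 ± 0.28 with an adjusted p of 0.0720 by edgeR, short of the 0.05 threshold. The 2 members thus gave 0 calls in a comparison in which 9.13% of the 15144 genes tested passed. DESeq2 gave TFAP2C an adjusted p of 0.0195, and edgeR without wild-type Day 12 library 1 or 2 gave 0.0449 or 0.0452. TFAP2C also passed (log2 -1.28, edgeR adjusted p = 0.0330) when clusters whose leading genes held more markers of another type than of their own were left out. The sums left then lacked Day 10 cluster 1, at 50.4 CPM of TFAP2A and 74.0 CPM of TFAP2C. They kept Day 10 cluster 7, at 559 and 406 CPM, whose leading genes held no trophoblast marker. In those sums TFAP2A stood at 194 and 187 CPM at Day 10 and no longer overlapped Day 14, with a log2 difference of -0.65 that did not pass (adjusted p = 0.183). When cytotrophoblast-like cells were used alone, TFAP2A turned to a log2 difference of 0.55 and TFAP2C stood at -0.44, neither of which passed.

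Of the other transcription factors known from trophoblast and amnion, a list of 16 genes, 7 passed in the same comparison, 1 higher and 6 lower, against 5.86% of all genes higher and 3.26% lower. EPAS1, the hypoxia-responsive HIF-2α subunit, rose by 2.98 on the log2 scale (adjusted p = 0.00927). GATA2 and GATA3, partners of the AP-2 factors in trophoblast, fell by 1.49 and 1.39 on the log2 scale, with adjusted p of 0.0256 and 0.00927. ARID3A, MSX2, TBX3 and CDX2, the last a trophectoderm and mesoderm homeobox gene, also fell, by 0.91, 2.06, 2.43 and 4.96 on the log2 scale. The list's median log2 difference was -0.19 beside 0.04 for all genes. Other types' markers moved with day in these wild-type sums. The 10 mesoderm markers summed to 97.7 to 146 CPM at Day 10 and 6.35 to 10.0 CPM at Day 14, the 9 Epi markers to 245 to 371 and 70.7 to 93.1 CPM, the 9 endoderm markers to 277 to 402 and 53.7 to 67.7 CPM, and the 8 extravillous markers to 234 to 244 and 1293 to 3829 CPM. At Day 10, 204 trophoblast-like cells formed a cluster with the mesoderm marker CDX1 and no trophoblast marker among its 10 leading genes. Their part in the result was not tested, apart from the leaving out of such clusters, after which CDX2 no longer passed (log2 -3.46, adjusted p = 0.133). The calls of GATA3 and EPAS1 were lost without wild-type Day 10 library 2 (adjusted p = 0.0641 and 0.0828), and each of the other 5 was lost in at least 3 of the alternatives. With the batch as a block TBX3 and CDX2 no longer passed (adjusted p = 0.0525 and 0.0640). The count of 1382 genes that passed fell to 47 without wild-type Day 10 library 2, 571 without wild-type Day 10 library 1, 431 without wild-type Day 14 library 1, and 824 to 913 without any single mutant library of Day 12 or Day 14.

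Levels in mutant trophoblast were compared with wild type at Day 12 and Day 14. At Day 12 TFAP2A was at 111 and 106 CPM in the mutant libraries, below the 241 and 156 CPM of the wild type, and TFAP2C at 60.3 and 52.2 CPM, below the wild type's 108 and 77.4 CPM. How many of all genes separate between these libraries in the same manner was not counted. The log2 differences were -0.95 ± 0.32 for TFAP2A and -0.79 ± 0.27 for TFAP2C (SE, mutant minus wild type). Neither passed by edgeR, with adjusted p of 0.267 and 0.272. In this comparison 0.0066% of genes, 1 of 15144, passed by edgeR, 2 with the batch as a block and 664 by DESeq2. Trophoblast-like cells of the mutant held medians of 19868 and 23089 UMIs at that day, and those of the wild type 143737 and 43414 UMIs. Subtype makeup moved with genotype as well, since extravillous-like cells made up 0.678% and 4.23% of wild-type and 9.94% and 10.8% of mutant trophoblast-like cells, and syncytiotrophoblast-like cells 11.2% and 7.82% of the wild type and 4.33% and 4.74% of the mutant. The 8 extravillous markers summed to 968 to 1136 CPM in the wild type and 2593 to 2992 CPM in the mutant, with none at 0. In cytotrophoblast-like cells alone TFAP2A was at 131 and 106 CPM in the wild type and 86.9 and 105 CPM in the mutant, and TFAP2C at 64.4 and 60.1 CPM against 56.9 and 50.2 CPM, with log2 differences of -0.39 and -0.30 (adjusted p = 0.620 and 0.619). The part of depth in the difference was not tested. Without cluster 30, whose leading genes held no trophoblast marker, TFAP2A stood at 168 and 128 CPM in the wild type and 102 and 105 CPM in the mutant, and TFAP2C at 92.3 and 65.4 CPM against 58.0 and 51.6 CPM, with log2 differences of -0.59 and -0.61 (adjusted p = 0.445 and 0.454) in a fit that also left out the Day 10 cluster led by CDX1. Wild-type library 1 was the higher for both genes, and without it the log2 differences were -0.49 for TFAP2A and -0.43 for TFAP2C.

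At Day 14 the mutant libraries held 95.7 and 137 CPM of TFAP2A, overlapping the wild type's 102 and 149 CPM, with a log2 difference of -0.06 ± 0.32 and an adjusted p of 0.952. TFAP2C was at 38.1 and 52.4 CPM in the mutant and 55.9 and 78.3 CPM in the wild type. The log2 difference of TFAP2C, -0.53 ± 0.27, did not pass (adjusted p = 0.452). It was -0.84 without mutant Day 14 library 2, -0.26 without mutant Day 14 library 1 and -0.24 in cytotrophoblast-like cells only. The median trophoblast-like cell held 49105 and 27233 UMIs in the wild type and 11496 and 27925 in the mutant, and the part of depth was not tested. No gene of 15144 passed in this comparison by edgeR (0%), whereas 1941 had an unadjusted p under 0.05 and DESeq2 passed 556. Without wild-type Day 14 library 1 edgeR passed 70. Neither TFAP2B nor KCTD1, the genes of the AP-2 family and co-factor list that could be tested, and none of the 16 transcription factors passed at either day, the smallest adjusted p being 0.214 at Day 12 and 0.246 at Day 14.

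**Figure D2:**
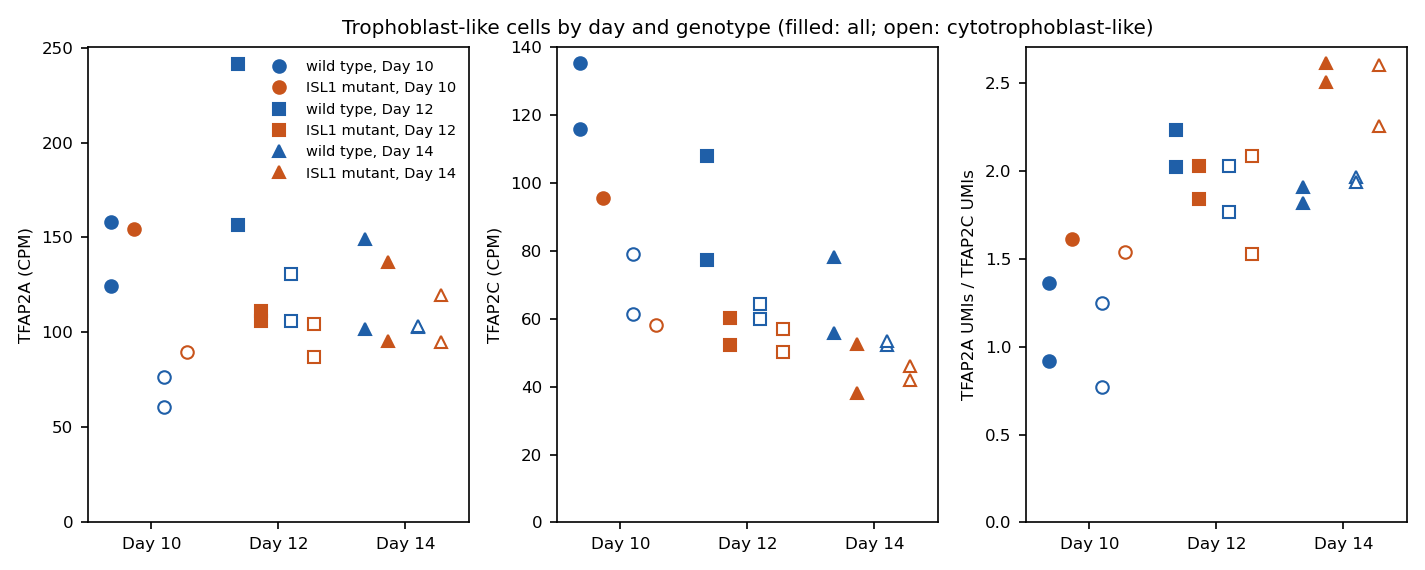
TFAP2A (left) and TFAP2C (middle) in CPM and the ratio of TFAP2A to TFAP2C UMIs (right) in trophoblast-like cells at each day. Each point is 1 library, blue for wild type and orange for ISL1 mutant, filled for all trophoblast-like cells and open for cytotrophoblast-like cells alone. TFAP2C in all trophoblast-like cells lies at 95.5 to 135 CPM at Day 10 and at 38.1 to 78.3 CPM at Day 14, and their ratio lies lower at Day 10 than later.

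Since the efficiency of capture differs between genes, the 2 members were set against each other only as a ratio of UMIs compared between samples. In trophoblast-like cells the TFAP2A-to-TFAP2C ratio was 1.36 and 0.919 in the wild-type Day 10 libraries and 1.62 in the mutant one. It was 2.23 and 2.02 in wild-type and 1.84 and 2.03 in mutant libraries at Day 12, and 1.82 and 1.91 in wild-type and 2.51 and 2.61 in mutant libraries at Day 14. All 3 Day 10 libraries thus lay below the 8 later ones, and both mutant Day 14 libraries lay above all others. Within cytotrophoblast-like cells the Day 10 ratios of 0.769 to 1.54 still reached the lowest of the later libraries, 1.53 in mutant Day 12 library 1. At Day 14 the cytotrophoblast-like ratios of 2.26 and 2.60 in the mutant lay above the 1.97 and 1.94 of the wild type. These orders were seen in the values and were not tested.

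Among the named subtypes of trophoblast, both members were highest in syncytiotrophoblast-like cells, the hormone-producing fused layer. At Day 14, TFAP2A was at 193 CPM in syncytiotrophoblast-like cells of wild-type library 1, 144 CPM in mutant library 1 and 338 CPM in mutant library 2. In cytotrophoblast-like cells it was at 103 CPM in both wild-type libraries and at 94.7 and 120 CPM in the mutant ones. Every syncytiotrophoblast-like sum lay above every cytotrophoblast-like sum, and the fitted difference within libraries was 2.82-fold (log2 1.49 ± 0.20, adjusted p = 0.000195, edgeR with the library as a block). TFAP2C was at 93.8, 58.5 and 76.7 CPM in syncytiotrophoblast-like cells of the same libraries, against 42.01 to 53.4 CPM over the 4 cytotrophoblast-like sums. It did not overlap either, and rose 2.20-fold (log2 1.14 ± 0.16, adjusted p = 0.000237). Both members therefore passed as higher in a comparison in which 47% of 12148 genes passed and 22.6% passed as higher. The fitted folds are after TMM normalization, and that of TFAP2C exceeds the CPM ratio within each of these libraries. That of TFAP2A exceeds the CPM ratio within wild-type library 1 and mutant library 1, and is near that of mutant library 2. The 5 syncytiotrophoblast markers alone summed to 198749 CPM in wild-type and 108073 to 157691 CPM in mutant syncytiotrophoblast-like cells. In cytotrophoblast-like cells they summed to 5078 to 5515 CPM in the wild type and 3010 to 5591 CPM in the mutant. Their part in the folds was not tested. Wild-type Day 14 library 2 had 4 syncytiotrophoblast-like cells and gave no sum. The call held for both genes in each of the 12 alternatives, with log2 differences of 1.16 to 1.73 for TFAP2A and 0.98 to 1.66 for TFAP2C. The alternative of at least 20 cells used the same sums as the main fit. Clusters 5 (668 cells) and 21 (442 cells), counted as cytotrophoblast-like, had the syncytiotrophoblast marker HSD3B1 and no cytotrophoblast marker among their 10 leading genes against other clusters of all cells, and held 127 and 213 CPM of TFAP2A and 41.2 and 95.0 CPM of TFAP2C.

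Syncytiotrophoblast-like cells of Day 12 were high as well. TFAP2A was at 408 and 394 CPM in the wild-type libraries and 420 and 313 CPM in the mutant ones, all above the cytotrophoblast-like sums of that day, which reached 131 CPM. TFAP2C was at 274 and 167 CPM in the wild type and 215 and 210 CPM in the mutant, over a highest cytotrophoblast-like sum of 64.4 CPM. These sums came from 33 to 196 cells and were not part of a test.

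KCTD1, a BTB-domain protein known to bind AP-2α and to repress its activity, was the gene of the AP-2 family and co-factor list that passed in syncytiotrophoblast-like cells. It was at 38.4, 23.4 and 28.7 CPM there and at 0.535 to 1.31 CPM in cytotrophoblast-like cells at Day 14, a log2 difference of 5.36 ± 0.48 (adjusted p = 1.42e-05). At Day 12 KCTD1 was at 1.86 to 5.84 CPM in syncytiotrophoblast-like cells. TFAP2B was at 0.302 CPM or less in syncytiotrophoblast-like cells of Day 14 and did not pass (log2 -2.38 ± 0.96, adjusted p = 0.0671). TFAP2D, TFAP2E, KCTD15, CITED1, CITED2 and CITED4, the remaining AP-2 family members and co-factors on the list, had no identifier paired with their symbol and were not analysed here.

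Of the 16 transcription factors, 15 could be tested between syncytiotrophoblast-like and cytotrophoblast-like cells and 10 passed, 4 higher and 6 lower, where 24.4% of all genes passed as lower. TBX3 rose most, by 4.46 on the log2 scale (adjusted p = 4.77e-05), followed by GATA2 at 2.19, EPAS1 at 1.15 and GCM1, the regulator of trophoblast fusion, at 0.68. OVOL2, IRX2, PPARG, VGLL1, MSX2 and DLX6 fell, by 4.09, 3.52, 2.98, 2.16, 1.98 and 1.53 on the log2 scale. GATA3, with a log2 difference of -0.36, did not pass. The call of GCM1 (adjusted p = 0.0484) was lost without a filter on low counts (0.101) and without wild-type Day 14 library 1 (0.315) or mutant Day 14 library 2 (0.227), and those of MSX2 and VGLL1 with clusters made without integration. Depth moved with the subtype: the median syncytiotrophoblast-like cell held 8785, 3967 and 9675 UMIs in wild-type library 1 and mutant libraries 1 and 2, and the median cytotrophoblast-like cell 44607, 10274.5 and 24819. Its part in these results was not tested.

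**Figure D3:**
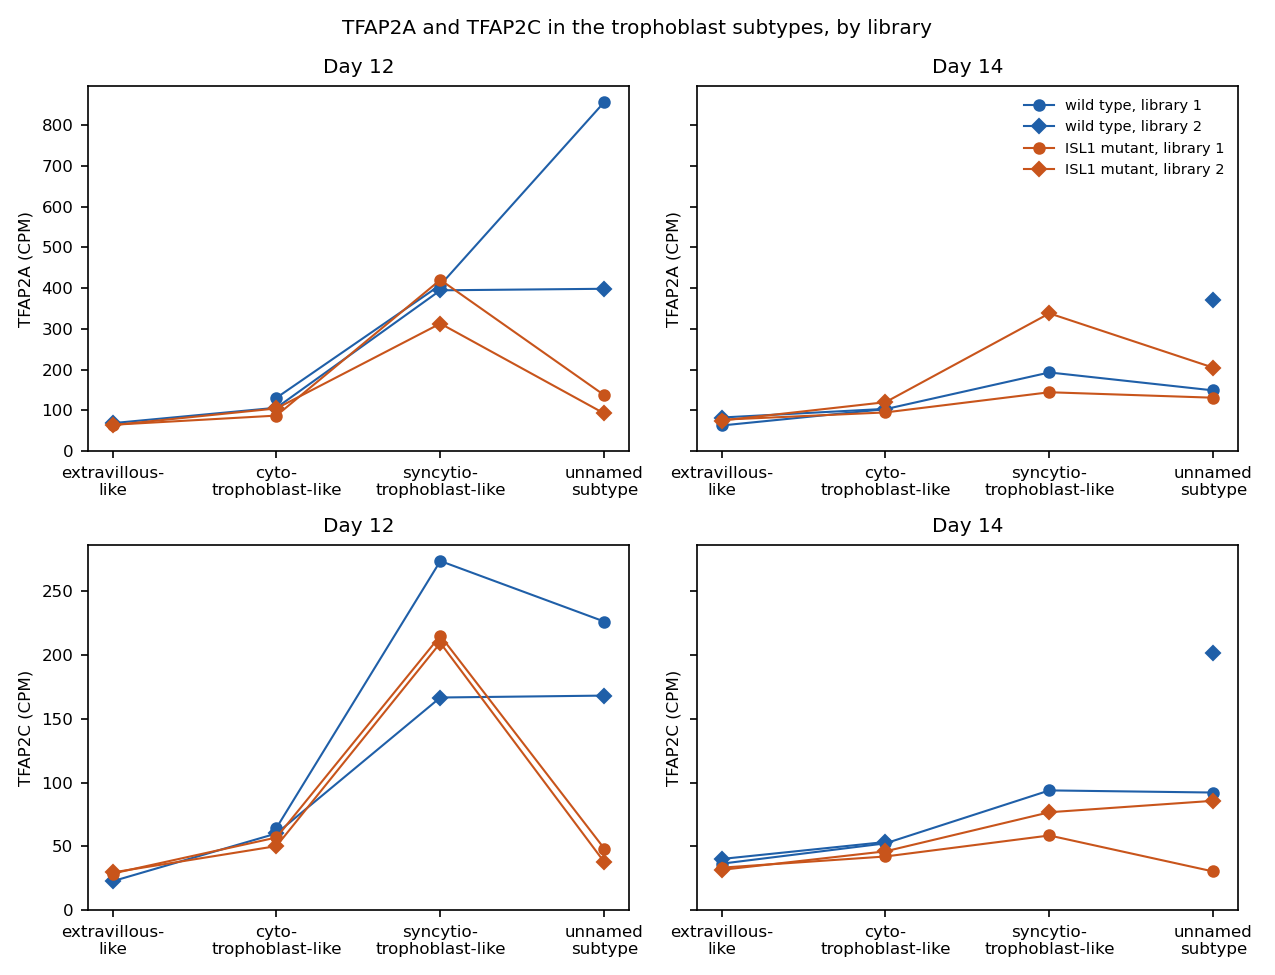
TFAP2A (top) and TFAP2C (bottom) in CPM in the trophoblast subtypes at Day 12 (left) and Day 14 (right). Each line joins the sums of 1 library, blue for wild type and orange for ISL1 mutant, and a missing point is a sum of under 5 cells. Both genes lie lowest in extravillous-like and highest in syncytiotrophoblast-like cells among the named subtypes, while the clusters without a subtype name spread widely, up to 856 CPM of TFAP2A.

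Extravillous-like cells, the invasive branch marked by LAIR2 and ISM2, lay at the low end. TFAP2A was at 62.7 and 82.2 CPM in the wild-type and 76.8 and 74.9 CPM in the mutant libraries of Day 14, below all 4 cytotrophoblast-like sums. TFAP2C was at 36.4 and 40.0 CPM in the wild type and 33.2 and 31.5 CPM in the mutant, also below all 4. The fitted differences were -0.29 ± 0.18 for TFAP2A (adjusted p = 0.198) and -0.24 ± 0.14 for TFAP2C (adjusted p = 0.167) on the log2 scale, and neither passed where 54.3% of genes did. These fitted differences, after TMM normalization, are smaller in size than the CPM differences within each library. Without clusters whose leading genes held more markers of another type, the differences were -0.017 and -0.068, and the cytotrophoblast-like sums of 69.3 to 99.6 CPM of TFAP2A overlapped those of extravillous-like cells. TFAP2B fell by 1.21 on the log2 scale (adjusted p = 0.0146) from levels of at most 1.43 CPM, a call lost by DESeq2 (adjusted p = 0.0750), with clusters made without integration (0.159), without the library block (0.141) and without mutant Day 14 library 1 (0.134) or wild-type Day 14 library 1 (0.0573). Of 15 transcription factors 9 passed, 3 higher against 28.1% of all genes and 6 lower against 26.3%. GCM1, EPAS1 and OVOL2 rose by 1.94, 1.85 and 1.65 on the log2 scale, and MSX2 fell by 3.99, GATA2 by 1.30, VGLL1 by 1.19, DLX5 by 1.15, IRX2 by 0.66 and ARID3A by 0.59. The call of IRX2 was lost without the library block (adjusted p = 0.0616) and without mutant Day 14 library 1 (0.0789) or wild-type Day 14 library 2 (0.0508), and that of ARID3A without mutant Day 14 library 1 (0.0508).

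The members also spread widely among trophoblast clusters left without a subtype name. At Day 10, clusters 7 (93 cells) and 17 (40 cells) held 559 and 476 CPM of TFAP2A and 406 and 332 CPM of TFAP2C, above the 152 CPM and 148 CPM of cytotrophoblast-like cluster 16. Cluster 17 had the syncytiotrophoblast marker CGA among its 10 leading genes. At Day 12, cluster 30, with 118 cells from all 4 libraries, held 945 CPM of TFAP2A and 291 CPM of TFAP2C, the highest TFAP2A of any cluster counted as trophoblast-like. Its 10 leading genes held no trophoblast marker and 1 transition marker, HMOX1, which goes against its name. The next highest was Day 10 cluster 7, whose 10 leading genes also held no trophoblast marker and were largely the same genes. Cluster 7 stayed in the trophoblast-like sums, also in those checked against every list. At Day 14, cluster 18, with 484 cells from 4 libraries, held 343 and 192 CPM. It had the syncytiotrophoblast markers CGA and HSD3B1 among its 10 leading genes, and without a subtype name it entered no subtype comparison. The wild-type sum of unnamed subtypes in Day 12 library 1, 36 cells, reached 856 CPM of TFAP2A. Over the trophoblast-like clusters of a day, log2 levels of the 2 genes correlated at r = 0.917 at Day 10 (n = 10 clusters), 0.841 at Day 12 (n = 22) and 0.570 at Day 14 (n = 25), a description over clusters that share libraries.

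**Figure D4:**
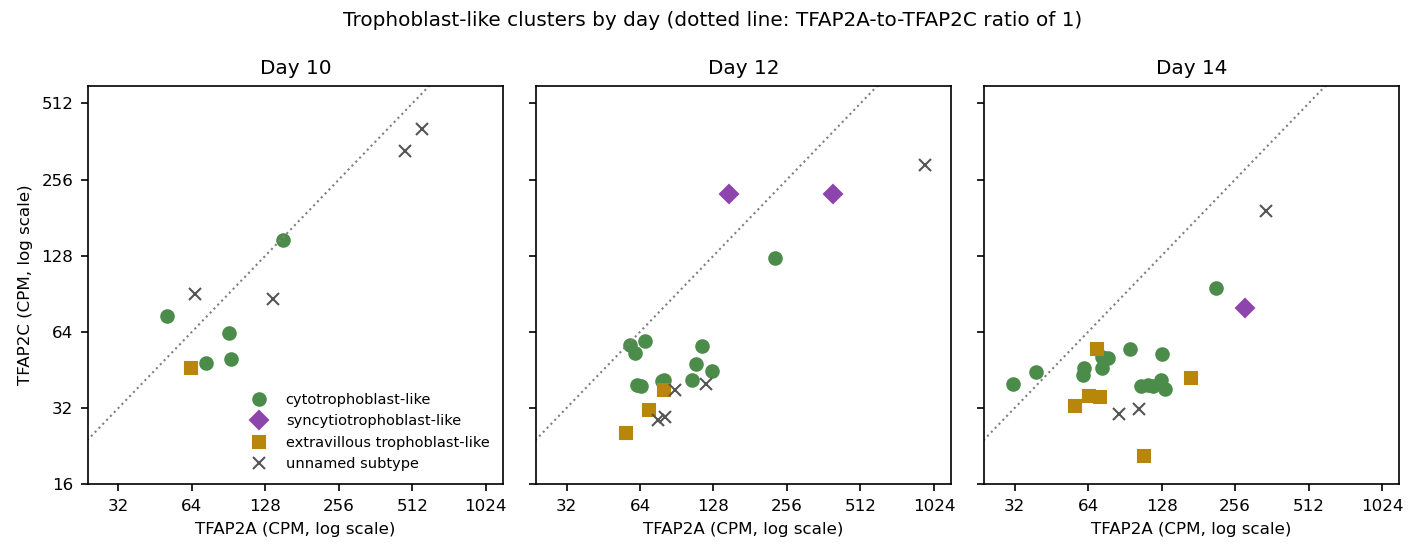
TFAP2A (horizontal axis) against TFAP2C (vertical axis), both in CPM on log scales, for each trophoblast-like cluster of Day 10, Day 12 and Day 14. Each point is 1 cluster, marked by subtype, and the dotted line is a ratio of 1. The clusters highest in TFAP2A, up to 945 CPM at Day 12, are also high in TFAP2C. Capture differs between genes, so the side of the line on which a cluster lies does not rank the genes.

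Amnion-like cells were compared between genotypes at Day 14. Epi-derived cells without a finer name, some sums of which also held ISL1, were left out. They numbered 140 and 68 in the wild-type and 91 and 9 in the mutant libraries. In amnion-like cells TFAP2C was at 80.3 and 154 CPM in the wild-type libraries (33 and 7 cells) and at 33.2 and 28.8 CPM in the mutant libraries (196 and 48 cells). Both mutant values lay below both wild-type values, and the share of all genes that separate this way was not counted. TFAP2C fell by 1.58 on the log2 scale (SE 0.40, edgeR adjusted p = 0.0395), 1 of the 2 members to pass where 5.89% of 6825 genes did. TFAP2A was at 33.8 and 146 CPM in the wild type and 105 and 100 CPM in the mutant. The mutant values lay between those of the wild type, and the log2 difference of 0.78 ± 0.56 did not pass (adjusted p = 0.432). The TFAP2A-to-TFAP2C ratio was 0.421 and 0.947 in wild-type and 3.15 and 3.48 in mutant amnion-like cells at Day 14. At Day 12 the mutant ratios were 1.26 and 2.34, with TFAP2A at 94.7 and 165 CPM and TFAP2C at 74.9 and 70.4 CPM, and the wild type had 3 amnion-like cells and no value. All 29 cells behind the values of mutant Day 12 library 1 came from a cluster with no amnion marker and 1 cytotrophoblast marker, XAGE3, among its 10 leading genes, and their ISL1 was at 39.6 CPM against 173 CPM in library 2.

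The TFAP2C call in amnion was lost without mutant Day 14 library 1 (adjusted p = 0.142) or 2 (0.147) and without wild-type Day 14 library 1 (0.0651) or 2 (0.110), and it was lost with clusters made without integration, where the log2 difference was -0.94 (adjusted p = 0.253), and without the clusters that 1 library alone held (adjusted p = 0.223). At Day 14, 138 amnion-like cells formed a cluster with no amnion marker and 1 ExE-Mech marker, CTHRC1, among its 10 leading genes. Without them TFAP2C in mutant library 1 was at 56.1 CPM over 58 cells, and the log2 difference was -1.35 (adjusted p = 0.140). The direction held in each of the 16 alternatives, while that of TFAP2A turned to -0.28 without wild-type library 1. Keeping only sums of at least 20 cells gave the same fit as leaving out wild-type library 2. Neither TFAP2B nor KCTD1 passed, and none of the 15 transcription factors tested did, the smallest adjusted p being 0.0595 for GATA3. The count of 402 genes passing, the 5.89% above, ran from 4 to 791 over the alternatives other than leaving out 1 library. Other cells' markers moved with genotype in these sums. The 9 ExE-Mech markers summed to 81.0 to 314 CPM in wild-type and 1377 to 2003 CPM in mutant amnion-like cells, with 7 of them at 0 in the wild-type library that had most at 0. The 11 trophoblast markers summed to 146 to 257 CPM in the wild type and 774 to 1638 CPM in the mutant, and the 10 mesoderm markers to 268 to 397 CPM in the wild type and 67.9 to 85.1 CPM in the mutant. The 8 extravillous markers summed to 275 to 867 CPM in the wild type and 1463 to 1589 CPM in the mutant. The 9 Epi-derived markers summed to 3184 to 3667 CPM in the wild type and 1819 to 3062 CPM in the mutant, with POU5F1 at 881 and 1481 CPM in the wild type and 189 and 525 CPM in the mutant. The median cell held 28199 and 16320 UMIs in the wild type and 4877.5 and 12644.5 in the mutant. Their part in the result was not tested.

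**Figure D5:**
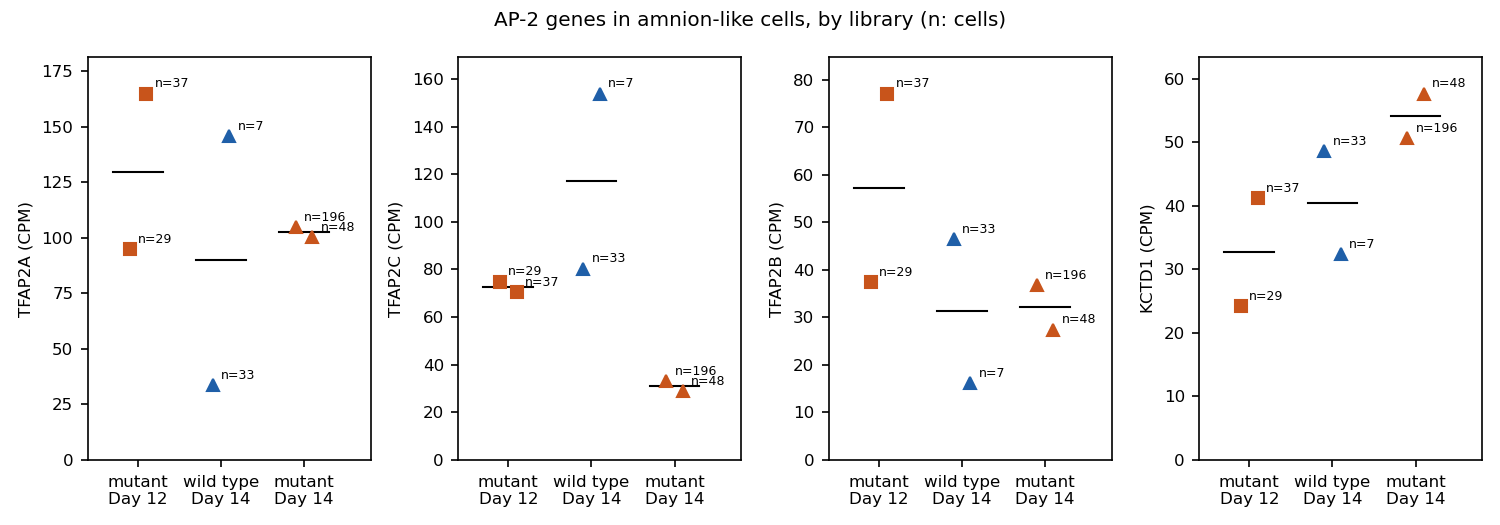
TFAP2A, TFAP2C, TFAP2B and KCTD1 in CPM in amnion-like cells of mutant Day 12, wild-type Day 14 and mutant Day 14 embryos. Each point is 1 library with its number of cells, and the bar is the mean. The Day 14 mutant libraries lie below the wild-type libraries for TFAP2C and between them for TFAP2A.

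Set against trophoblast-like cells of the same 4 Day 14 libraries, neither member passed in amnion-like cells. TFAP2A was at 33.8, 146, 105 and 100 CPM in amnion and at 102, 149, 95.7 and 137 CPM in trophoblast of wild-type libraries 1 and 2 and mutant libraries 1 and 2. Amnion was lower in 3 of the 4 libraries, and the log2 difference of -0.51 ± 0.29 (amnion minus trophoblast) had an adjusted p of 0.208. TFAP2C was at 80.3, 154, 33.2 and 28.8 CPM in amnion and at 55.9, 78.3, 38.1 and 52.4 CPM in trophoblast of these libraries. It was higher in amnion in both wild-type libraries and lower in both mutant ones, an order that was not tested. Without the 138 cells of the cluster led by CTHRC1, mutant library 1 was higher in amnion as well, at 56.1 CPM. TFAP2C had a log2 difference of 0.07 ± 0.28 (adjusted p = 0.890) and changed sign in 6 of 14 alternatives. TFAP2A passed without a filter on low counts (adjusted p = 0.0429) and without the clusters of 1 library (0.0472). In contrast, both genes of the AP-2 family and co-factor list that could be tested passed as higher in amnion, where 33.4% of 11148 genes passed and 15.9% passed as higher. TFAP2B, the AP-2β family member, was at 46.5, 16.2, 36.9 and 27.4 CPM in amnion-like cells and at 1.14 CPM or less in trophoblast-like cells, a log2 difference of 5.30 ± 0.39 (adjusted p = 1.76e-06). The 16.2 CPM of wild-type library 2 came from 7 cells and from fewer than 3 UMIs. KCTD1 was at 48.6, 32.4, 50.6 and 57.6 CPM in amnion-like cells and at 1.19 to 2.25 CPM in trophoblast-like cells, a log2 difference of 4.92 ± 0.33 (adjusted p = 8.70e-07).

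The transcription factors around the members divided between these tissues, with 11 of 16 passing, 4 higher and 7 lower in amnion, where 17.5% of all genes passed as lower. CDX2, ISL1 and HAND1, regulators of amnion and extraembryonic mesoderm, and TBX3 were higher by 8.06, 7.55, 6.24 and 1.36 on the log2 scale. GCM1, VGLL1, PPARG and GATA2, regulators of trophoblast identity and differentiation, fell by 5.73, 4.65, 3.60 and 3.60, and DLX6, IRX2 and ARID3A fell by 1.62, 1.31 and 1.30. GATA3, DLX5 and MSX2, with log2 differences of -0.58, 0.65 and 0.29, did not pass. The list's median was -0.70 beside -0.10 for all genes. Other types' markers differed too. The 9 ExE-Mech markers summed to 1377 to 2003 CPM in mutant amnion-like and 103 to 176 CPM in mutant trophoblast-like cells. Their wild-type ranges overlapped. In the wild type, the 10 mesoderm markers summed to 268 to 397 CPM in amnion-like and 6.35 to 10.0 CPM in trophoblast-like cells. The median amnion-like cell held fewer UMIs than the median trophoblast-like cell in each library. Their part in these calls was not tested.

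Epi-like cells carried TFAP2C at Day 10. TFAP2C was at 26.2 and 34.8 CPM in the wild-type libraries and 18.2 CPM in the mutant library at Day 10, at 12.6 to 13.2 CPM over the 4 libraries of Day 12, and at 5.80 to 14.4 CPM over those of Day 14. All 3 Day 10 values lay above all 8 later ones. TFAP2A in the same Day 10 cells was at 1.46, 0.653 and 2.12 CPM, no higher than the 1.12 to 3.31 CPM of endoderm-like cells at that day, so it cannot be told from background. Later it ranged from 1.47 to 35.3 CPM, and 6 of these 8 values lay within the 0 to 15.4 CPM of endoderm-like cells. Mutant Day 12 library 2, at 24.8 CPM, and the 23 cells of wild-type Day 14 library 2, at 35.3 CPM, lay above it. Of the Epi-like cells of Day 12, 76 came from 2 clusters with no Epi marker among their 10 leading genes, where 1 had 4 trophoblast markers (41 cells) and the other 1 ExE-Mech marker (35 cells). Without them the 4 Day 12 values were 1.57 to 12.7 CPM of TFAP2A, all within the endoderm-like range, and 5.08 to 12.6 CPM of TFAP2C. No test was set for these cells.

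Epi-derived cells without a finer name held TFAP2C above the endoderm-like range at each day. Their TFAP2A lay above that range except in the wild type at Day 10. There it lay within the 0 to 15.4 CPM of endoderm-like cells over all libraries, but above the 1.12 to 3.31 CPM of endoderm-like cells at Day 10. TFAP2A was at 6.12 and 7.29 CPM in wild-type and 43.0 CPM in mutant Day 10 libraries, 70.3 to 75.3 CPM at Day 12 and 21.7 to 88.7 CPM at Day 14. TFAP2C was at 38.0 to 63.9 CPM at Day 10, 34.2 to 103 CPM at Day 12 and 37.7 to 78.7 CPM at Day 14. These unnamed cells also held ISL1, at 10.5 to 77.3 CPM at Day 12 and 6.41 to 139 CPM at Day 14. Epi-like cells of those days held 0.634 to 4.55 CPM of ISL1. At Day 14 the unnamed cells had TFAP2B at 3.87 to 21.7 CPM and KCTD1 at 6.85 to 27.9 CPM. Whether some of them are amnion was not tested. Transition-like cells of Day 12 had TFAP2A at 40.8 CPM in the wild type and 36.6 and 72.3 CPM in the mutant, above the 8.01, 12.3 and 24.8 CPM of Epi-like cells in the same libraries, which were 3.31, 7.18 and 12.7 CPM without those 2 clusters.

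TFAP2C is also a marker of primate primordial germ cells, together with SOX17, PRDM1, POU5F1 and NANOG, so the Epi-derived cells were checked for that combination. TFAP2C had a UMI in 1195 of 3045 Epi-derived cells, 67 of which also had SOX17 and 16 of which had all 5 genes. With at least 2 UMIs each of TFAP2C, SOX17 and PRDM1, 7 cells remained. Among all 3045 cells SOX17 had a UMI in 122 and PRDM1 in 59. POU5F1, which had served to name Epi-derived cells, was found in 1170 of the 1195 cells with TFAP2C. It therefore adds little to the combination, and 17 cells had TFAP2C, SOX17 and PRDM1. Whether the genes occur together beyond their shares was not tested. In wild-type Day 14 library 1, 4 of the 16 cells, all Epi-derived without a finer name, together held 56 UMIs of TFAP2C and 5 of TFAP2A. The high TFAP2C of mesoderm-like cells in mutant Day 14 library 1, 114 CPM over 12 cells, came from 17 UMIs, of which 2 of the 16 cells held 14. Cells were chosen here by having TFAP2C, so their level is a description.

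The share of cells with a UMI was read after each cell was thinned to 5000 UMIs. TFAP2A was found in 29.6% to 52.5% of trophoblast-like cells over the 11 libraries (median 40.4%), and TFAP2C in 17.5% to 36.2% (median 26.6%), with both in 6.47% to 20.3%. In amnion-like cells TFAP2A was found in 25.0% to 57.1% and TFAP2C in 12.0% to 42.9% over 6 libraries. For example, 11 of 92 amnion-like cells of mutant Day 14 library 1 had TFAP2C (12.0%, exact 95% binomial interval 6.12% to 20.4%), and 7 of 32 of wild-type Day 14 library 1 (21.9%, 9.28% to 40.0%). Those intervals overlap and cover counting error only, and 104 cells of the former library were too shallow to enter. Cell types that should lack the genes set the background: ExE-Mech-like cells had TFAP2A in 1.02% to 3.39% and TFAP2C in 0% to 5.08%, and endoderm-like cells had TFAP2A in 0% to 4.23% and TFAP2C in 0% to 9.09%. Before thinning, the median cell held 11496 to 143737 UMIs in trophoblast-like, 4877.5 to 28199 in amnion-like, 10268.5 to 90697 in ExE-Mech-like and 5840 to 73337.5 in endoderm-like sums, and the median share over libraries was 87.5% of trophoblast-like cells for TFAP2A and 74.9% for TFAP2C.

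Within trophoblast-like cells, TFAP2A was found in 34.8% to 61.9% of the thinned cells that had TFAP2C and in 26.6% to 48.0% of those that did not. The former share was the higher in 10 of the 11 libraries, the exception being wild-type Day 14 library 1 with 35.8% against 36.0%. The difference was as large as 55.6% against 35.9% in wild-type Day 14 library 2. This is a description over cells that share libraries and subtypes.

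The genes whose pattern was most like that of each member were listed by the correlation of log2(CPM + 1) over 48 sums of a named type in a library with at least 20 cells, among 820 genes with a symbol and a mean of at least 10 CPM. For TFAP2A these were DLX5 (r = 0.884), GATA2 (0.856), DLX6 (0.837), TFAP2C (0.823) and TMEM54 (0.808). For TFAP2C they were CDH3 (r = 0.868), SMAGP (0.865), IRX2 (0.855), TFAP2A (0.823) and KRT7 (0.821). TMEM54, CDH3 and SMAGP had served as amnion markers and KRT7 as a trophoblast marker when clusters were named. Symbols came only from the study's supplementary gene lists, such as its marker and differential genes, so the 820 genes were a preselected set. The sums share libraries, so this is a description.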

How the data were processed

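Single-cell RNA libraries (Chromium 3′, Cell Ranger 3.1.0 per the submitters' processing notes) were analysed from a deposited matrix of 19367 genes and 33330 cells. The authors removed ambient RNA with SoupX, which left estimated counts (expected counts, all whole numbers here), and also deposited the uncorrected UMI counts as a further matrix, used only as an alternative. The authors had already filtered cells on gene number and mitochondrial share, and no doublets were called here.

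Cells of each day were integrated and clustered with Seurat 5.3.0 (R 4.3.3), leaving the members and both gene lists out of the features. A cluster took the marker list with the highest score if at least 3 markers were found in 25% of its cells, its score led by 0.1, and its 10 leading genes did not hold more markers of another list of the same level (main types among all cells, finer types among Epi-derived cells, subtypes among trophoblast-like cells), with amnion and Epi-derived counted as 1 class at the first. Clusters of low depth needed a marker of their own there. Checked against every list, clusters led by more markers of another type held 204 trophoblast-like (all cytotrophoblast-like) cells of Day 10, 76 Epi-like, 31 amnion-like, 1140 cytotrophoblast-like and 118 other trophoblast-like cells of Day 12, and 138 amnion-like and 1622 cytotrophoblast-like cells of Day 14. An alternative left such clusters out. This naming rule was set after the clusters were seen, and the members and lists were chosen with earlier results of these data known. UMIs were summed per type and library over at least 5 cells and tested with edgeR 4.0.16 (quasi-likelihood, TMM, filterByExpr, two-sided, Benjamini-Hochberg over all genes tested, threshold 0.05), with the library as a block within libraries. DESeq2 1.42.0 was an alternative. Libraries of a group pool 1 to 3 embryos each, so p-values measure the spread between such pools. The named genes are the members, the AP-2 list, the transcription factor list and the 5 genes most like each member. Exact 95% binomial intervals and the floor of 3 counts cover counting error only. Where the libraries of compared groups are said not to overlap, the share of all genes that separate this way was not counted.

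The labels give the replicate number as a batch. Deviations of same-numbered libraries from their group means correlated at -0.176 to 0.205 over 10 pairs of groups. On simulated data with 200 changed genes, the trophoblast genotype comparison at Day 14 recovered 0% of genes changed by 1 on the log2 scale and 24% of those changed by 2 (14568 genes), and the amnion genotype comparison 3% and 58% (6430 genes). No genome of the build used was at hand, so no coordinates or sequences are given.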

Additional observations from a re-analysis of the deposited data

Results flagged for a closer look

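At Day 10, 161 cells of wild-type library 1 and 165 cells of wild-type library 2 were left without a type name, 24.5% and 24.6% of those libraries, and entered no comparison. Their absence from every comparison was the reason for a closer look. They came from clusters 2, 11 and 12, in which no marker list led by the margin required. Clusters 2 and 12 scored highest for trophoblast, with TFAP2C at 103 and 190 CPM. Cluster 11 scored highest for Epi-derived cells, with TFAP2C at 128 CPM. TFAP2A was at 48.5 CPM in library 1 and 40.5 CPM in library 2, and TFAP2C at 118 CPM and 132 CPM. The TFAP2A-to-TFAP2C ratio of 0.411 and 0.307 was below the 1.36 and 0.919 of trophoblast-like cells in the same libraries. Endoderm-like cells of these libraries held 2.94 and 0 CPM of TFAP2C. The mutant Day 10 library had 1 such cell. What these cells are was not tested.

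TFAP2C at Day 14 was higher in amnion-like than in trophoblast-like cells in both wild-type libraries, by 0.52 and 0.97 on the log2 scale of the CPM ratio, while both mutant libraries gave -0.20 and -0.86. The genotypes moved opposite ways in these sums, and this difference was not tested. It did not hold without the 138 amnion-like cells of the cluster led by an ExE-Mech marker, where mutant library 1 held 56.1 CPM in amnion-like and 38.1 CPM in trophoblast-like cells. The wild-type amnion sums held 33 and 7 cells.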

How the results depend on the processing

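Over 234 alternatives for the members, 206 kept direction and side of the threshold, 9 lost and 6 gained a call, and 13 changed sign. The 234 include repeats, since requiring at least 20 cells changed no sum in the trophoblast and subtype comparisons. Both members passed as higher in syncytiotrophoblast-like cells in every alternative. TFAP2A in trophoblast between Day 10 and Day 14 turned to 0.10 on the log2 scale with names without checks and 0.55 in cytotrophoblast-like cells only, was -0.65 with names checked against every list, and ranged from -0.40 to 0.027 without single libraries. TFAP2C there passed by DESeq2 (-0.95) and with names checked against every list (-1.28), and ranged from -1.07 to -0.80. TFAP2A between genotypes at Day 14 turned to 0.086 in cytotrophoblast-like cells only, and ranged from -0.42 to 0.22 in trophoblast and from -0.28 to 1.71 in amnion without single libraries. TFAP2C in amnion between genotypes was -0.94 without integration, -1.25 with at least 20 cells, -1.38 with names without checks, -1.35 with names checked against every list and -1.70 without clusters of 1 library, none of which passed, and ranged from -2.07 to -1.25 without single libraries. Between amnion and trophoblast, TFAP2A passed without a filter (-0.68) and without clusters of 1 library (-0.71), and TFAP2C turned to -0.11 without a filter, -0.10 without integration, -0.25 with at least 20 cells and -0.11 with names without checks, and ranged from -0.24 to 0.37 without single libraries. The causes were not tested.

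Genes passing between Day 10 and Day 14 numbered 2615 by DESeq2 and 47 to 1726 without single libraries, from 1382. Between genotypes in trophoblast they numbered 556 by DESeq2, 16 without a filter, 3 in cytotrophoblast-like cells only and 0 to 70 without single libraries at Day 14, from 0, and 664, 3, 2 and 0 to 25 at Day 12, from 1. In amnion they numbered 791 without a filter, 65 without integration, 181 with at least 20 cells, 165 with names checked against every list, 4 without clusters of 1 library and 57 to 521 without single libraries, from 402. With the batch as a replicate block 2 genes passed at Day 12, and the block changed no member's call. Names without checks, names checked against every list, cytotrophoblast-like cells only and the omission of clusters of 1 library were chosen after seeing the data.

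With all UMIs of a cell the median share of trophoblast-like cells was 87.5% for TFAP2A, 74.9% for TFAP2C and 69.1% for both, and of amnion-like cells 60.5%, 62.4% and 33.5%. Amnion sums at Day 14 held 33 and 7 wild-type cells.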
